A study of Arabidopsis thaliana with 13 samples.

Results

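PIF4 and PIF5 are bHLH transcription factors, and the sites described here are the places in the Arabidopsis genome where both were found by chromatin immunoprecipitation and sequencing (ChIP-seq). A site was a PIF4 peak and a PIF5 peak whose summits lay within 100 bp of each other. There were 3006 such sites, made of 3006 of the 9925 PIF4 peaks (30.3%) and 3006 of the 3767 PIF5 peaks (79.8%), and no peak fell into more than 1 pair. The question was which of these sites stood higher among PIF4 peaks than among PIF5 peaks, which stood lower, and which ranked alike.

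The material was whole Arabidopsis thaliana seedlings of ecotype Columbia, kept 5 days in continuous white light and then 16 h in low blue light. Stratification lasted 2 days in every group. The PIF4 line carried PIF4-3xFlag-6xHis, the PIF5 line carried PIF5-Flash, whose tag is 9xMyc-6xHis-3xFlag, and the CRY2 line carried 3xFlag-6xHis-CRY2 under the UBQ10 promoter. Each protein was precipitated with anti-FLAG, in 3 libraries for PIF4, 2 for PIF5 and 2 for CRY2, beside 2 IgG control libraries for each line. The PIF precipitations used 2 g of seedlings, and that of CRY2 used 18 g and an added cross-linker, so CRY2 differed from the PIFs in driver, material and fixation at the same time. The promoter of the PIF transgenes is not given in the labels, every line was tagged, and an untagged line precipitated with anti-FLAG is not among the groups.

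Phytochrome-interacting factors (PIFs) bind E-box elements such as the G-box and promote cell elongation in darkness, shade, warmth and weak blue light. Light-activated phytochromes bind PIFs and mark most of them for degradation, and the blue-light receptors cryptochrome 1 and 2 (CRY1, CRY2) have been found together with PIF4 and PIF5. PIF4 and PIF5 act in overlapping ways on auxin, brassinosteroid and gibberellin genes during hypocotyl growth.

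The authors gave 1 pooled peak list per protein, so each fold enrichment below is a single value, the ratio of FLAG signal to control at a peak, with no replicate behind it. No difference between PIF4 and PIF5 could be tested, and every comparison here is a description of these lists. The lists differ in length and each has its own control, so fold enrichment was turned into ranks. A site's own-list percentile places its peak among all peaks of that protein, with 100 the strongest. The rank difference is the PIF4 percentile minus the PIF5 percentile when both are ranked among the 3006 sites, in points. Sites with a difference of at least 25 points towards PIF4 are called PIF4-higher, those with at least 25 points towards PIF5 are PIF5-higher, those within 10 points are alike, and the rest lie between. The sites were chosen by the measured positions of the summits and the classes by fold enrichment, so both are given without a test.

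The shared sites were strong PIF4 peaks and average PIF5 peaks. Their median fold enrichment was 3.24 for PIF4 (range 1.79 to 5.50) and 2.44 for PIF5 (range 1.86 to 7.21). PIF4 peaks without a partner had a median of 2.26, and PIF5 peaks without one had 2.28. In its own list, the median shared PIF4 peak stood at percentile 81.5 (quartiles 66.1 and 91.9), and the median shared PIF5 peak at 53.2 (quartiles 27.3 and 77.5). The PIF4 peaks were also wider, with a median of 1088 bp against 781 bp. Of the 761 PIF5 peaks without a pair, 625 still overlapped a PIF4 peak whose summit lay farther away.

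Summits of the pairs were close. Their median distance was 25 bp, 1302 pairs (43.3%) lay at most 20 bp apart, and 32 shared the summit base. Just inside the distance limit, at 91 to 100 bp, 63 pairs had median fold enrichments of 3.08 for PIF4 and 2.38 for PIF5. Just outside it, at 101 to 110 bp, 47 pairs had 2.97 and 2.27.

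Across the 3006 sites, fold enrichment of PIF4 and PIF5 had a Spearman rho of 0.630, and the authors' −log10 p had 0.702. These are descriptions over sites of the same 2 lists, which are not independent points. The ranks met at the strong end more than at the weak end. Of the 298 sites in the strongest 10% for PIF4 and the 304 in the strongest 10% for PIF5, 176 were in both (59.1% and 57.9%). Of the 305 and 285 sites in the weakest 10%, 75 were in both (24.6% and 26.3%). The median absolute rank difference was 14.2 points, and 663 sites ranked within 5 points.

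By class, 442 sites (14.7%) were PIF4-higher, 401 (13.3%) were PIF5-higher, 1136 (37.8%) were alike and 1027 (34.2%) lay between. PIF4 stood higher by at least 50 points at 110 sites and PIF5 at 68. With percentiles of each whole list, in which shared sites are stronger PIF4 than PIF5 peaks, the same limits gave 1315 PIF4-higher and 40 PIF5-higher sites, so the classes order the shared sites against each other and do not compare the strength of binding. The sites nearest to the limits were at 25.01 and 24.98 points for PIF4-higher, −25.06 and −24.93 points for PIF5-higher, and 9.95 and 10.03 points for alike. PIF4-higher sites paired a strong PIF4 peak with a weak PIF5 peak, at median fold enrichments of 3.59 and 2.16, or own-list percentiles 88.5 and 24.5. PIF5-higher sites had 2.74 for PIF4 and 2.65 for PIF5, at own-list percentiles 64.5 and 67.5, so the median PIF5-higher site stood about as high among all PIF4 peaks as among all PIF5 peaks. Sites ranked alike had medians of 3.5 and 2.62.

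**Figure D1:**
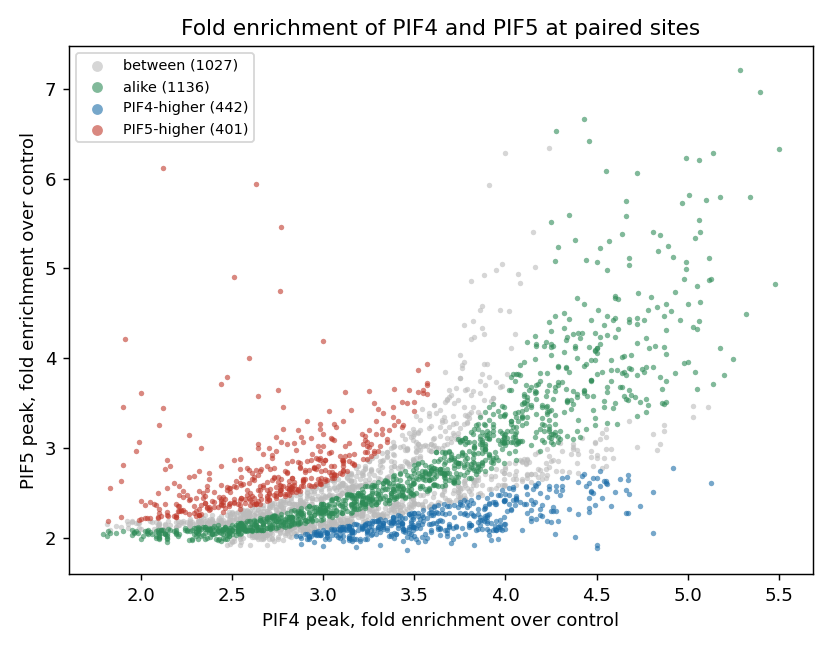
Fold enrichment over control of the PIF4 peak (x axis) and the PIF5 peak (y axis) at each of the 3006 shared sites, 1 point per site, coloured by rank class (442 PIF4-higher, 401 PIF5-higher, 1136 alike, 1027 between). The PIF4-higher sites form the lower edge of the cloud, the PIF5-higher sites its upper left edge, and a few red points at PIF4 values under 3 reach PIF5 values of 4 to 6.12.

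The 10 sites ranked furthest towards PIF4 lay at PIF4 percentiles of 92.2 to 99.3 and PIF5 percentiles of 0.0398 to 13.4 in their own lists. At chr2:13768741-13769703 (TAIR10, PIF4 peak), nearest to AT2G32430, PIF4 had 4.50-fold and PIF5 1.89-fold enrichment, the latter near the list minimum of 1.86. At chr3:9007364-9008271, inside AT3G24670, the values were 4.50 and 1.92. The next were AT5G48900 with 4.81 and 2.05, AT5G22580 with 4.38 and 2.01, and AT5G54585 with 4.27 and 2.04. HB21, a homeodomain-leucine zipper transcription factor that acts in axillary bud dormancy, had 3.96 and 1.99. AT4G38840, given as SAUR14 among the gene table's synonyms and so a member of the small auxin-up RNA family, had 3.92 and 1.97. AT2G18980 had 3.83 and 1.92, AT5G18937 had 3.91 and 2.03, and AT1G32700 had 4.09 and 2.09. The PIF4 peaks of these 10 sites were 697 to 1896 bp wide and the PIF5 peaks 422 to 996 bp. None of the 10 overlapped a CRY2 peak and 1 lay inside a gene, beside 59.9% and 30.2% of all sites.

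All 10 sites ranked furthest towards PIF5 lay inside a gene and overlapped a CRY2 peak, beside 30.2% and 59.9% of all sites. Their median peak widths were 2120 bp for PIF4 and 2576.5 bp for PIF5, beside 1088 and 781 bp at all sites. In an unplanned check over all sites, peaks wider than 2000 bp were left out. CRY2 peaks then overlapped 43.0% of PIF4-higher and 61.9% of PIF5-higher sites, beside 47.1% and 65.8% with all widths. Inside genes lay 25.2% and 35.7%, beside 23.5% and 38.7%. Whether width bears on the overlap at the 10 sites described here was not tested. The site inside AT4G34150 combined a PIF4 peak of 2.12-fold and 546 bp with a PIF5 peak of 6.12-fold and 3739 bp (chr4:16354349-16358087), and CRY2 stood at 5.69-fold there. NHL3, of a family of pathogen-responsive membrane proteins, had 1.91 for PIF4, 4.21 for PIF5 and 2.81 for CRY2. RAP2.4, an AP2-type transcription factor, had 2.00 for PIF4 and 3.61 for PIF5 under peaks of 3981 and 3985 bp, and its CRY2 value of 7.01 stood at percentile 99.97 of the CRY2 list. AT1G80440, a Kelch-repeat F-box protein by the table's synonyms, had 1.90, 3.46 and 4.32 in the same order.

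CAF1a, a deadenylase subunit that shortens mRNA tails, had 2.51 for PIF4, 4.90 for PIF5 and 3.93 for CRY2. NIA2, the main nitrate reductase of leaves, had 2.12, 3.44 and 3.49 in that order, under PIF peaks of 3882 and 3899 bp. PUP14, a purine permease that moves cytokinin, had 2.63, 5.94 and 3.27. AT5G42050 had 2.1, 3.26 and 2.72, AT1G79480 had 2.44, 3.71 and 6.10, and AT3G10720 had 2.47, 3.79 and 2.99. The rank differences of the 10 ran from −96.7 to −81.7 points, and their CRY2 peaks stood at percentiles 85.6 to 99.97 of the CRY2 list. A wide or split peak could hold a stronger PIF4 summit beside the paired one, but at these 10 sites no stronger PIF4 peak lay under the PIF5 peak. A stronger PIF4 peak did lie there at 9 of all 3006 sites, 5 of them PIF5-higher.

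**Figure D2:**
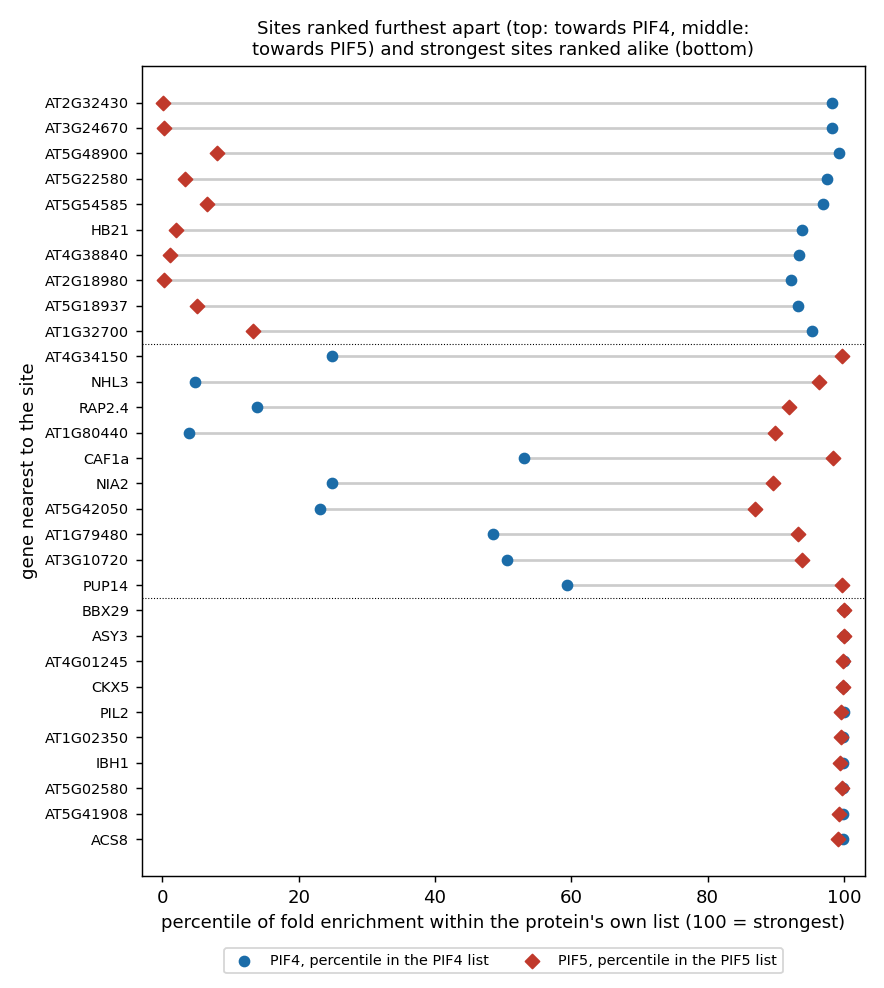
Own-list percentile of fold enrichment (x axis, 100 the strongest) of the PIF4 peak (blue circles) and the PIF5 peak (red diamonds) at the 10 sites ranked furthest towards PIF4, the 10 furthest towards PIF5 and the 10 strongest alike sites, named by the nearest gene (y axis). Towards PIF4 the PIF5 peaks sit at 13.4 or lower, towards PIF5 the PIF4 peaks run from 3.97 to 59.4, and at the alike sites both markers lie above 99.

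The 10 strongest sites ranked alike, taken by the weaker of their ranks for the 2 proteins, had PIF4 values of 5.06 to 5.50 and PIF5 values of 5.41 to 7.21. BBX29, a B-box zinc finger protein, had 5.40-fold for PIF4 and 6.96-fold for PIF5, at percentiles 99.98 and 99.97. The site nearest to ASY3, a protein of the meiotic chromosome axis, had 5.29 and 7.21, the highest PIF5 value of all, and the gene on the other side of that summit was PIL1, a bHLH gene induced by shade. AT4G01245 had the highest PIF4 value, 5.50, and 6.33 for PIF5. CKX5, which breaks down cytokinin, had 5.14 and 6.28.

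PIL2, also called PIF6, had 5.34 and 5.80. The site nearest to AT1G02350 had 5.18 and 5.79, and the gene on its other side was HFR1, an inhibitory bHLH protein that binds PIFs and restrains the shade response. IBH1, a bHLH inhibitor of cell elongation, had 5.10 and 5.76. ACS8, an enzyme of ethylene synthesis, had 5.07 and 5.41. AT5G02580 had 5.06 and 6.21, and AT5G41908 had 5.06 and 5.54. None of these 10 lay inside a gene, and 5 overlapped a CRY2 peak, of 2.47 to 2.87-fold. The 3 alike sites ranked lowest for both, at AT1G20823, AT1G26300 and NF-YA3, had 2.00 and 1.99, 2.08 and 2.00, and 2.1 and 2.00.

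Place relative to genes was not used to form the classes. Of all sites, 909 (30.2%) had the PIF4 summit inside a protein-coding gene, 1586 (52.8%) outside but within 1 kb of one, and 511 (17.0%) farther away. Inside genes lay 104 of 442 PIF4-higher sites, or 23.5% (Wilson 95% interval 19.8 to 27.7), and 155 of 401 PIF5-higher sites, or 38.7% (34.0 to 43.5). The alike sites had 28.3% and those between 31.9%. The difference of PIF5-higher minus PIF4-higher was 15.1 points (95% interval 8.89 to 21.2). Beyond 1 kb lay 23.5% of PIF4-higher sites (19.8 to 27.7) and 11.5% of PIF5-higher sites (8.71 to 15.0), a difference of −12.1 points (−17.1 to −6.96). These intervals cover counting error over sites only. They hold no error between libraries, and neighbouring sites are not independent.

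Overlap with CRY2 peaks was not used either. A CRY2 peak overlapped the PIF4 peak at 1801 sites (59.9%). It did so at 208 PIF4-higher sites, 47.1% (42.5 to 51.7), at 59.9% of alike sites, at 63.1% of those between and at 264 PIF5-higher sites, 65.8% (61.1 to 70.3). PIF5-higher minus PIF4-higher was 18.8 points (12.1 to 25.2). Where a CRY2 peak was present its median fold enrichment moved little between classes, from 2.36 at PIF4-higher sites to 2.41 at alike sites, 2.45 between and 2.47 at PIF5-higher sites. All 3 lists come from anti-FLAG precipitations, and what leads to an overlap between them was not tested.

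Both features differed between the ends of the range of rank differences. With the sites put in order and cut into 10 equal groups, the share under a CRY2 peak went from 70.1% (64.7 to 74.99) in the group furthest towards PIF5 to 46.0% (40.4 to 51.7) in the group furthest towards PIF4. The share inside genes went from 41.9% to 24.3%, and the share beyond 1 kb from 9.97% to 25.7%. Inside genes the fall lay on the PIF5 side. The share was already 27.2% in the fifth group and 24.3% in the sixth, and from there on stayed between 24.3% and 27.9%. The share beyond 1 kb did not change evenly either, since the sixth group, with a median difference of 0.99 points, already had 78 of its 300 sites there. Among the 100 sites at each end, 77.0% overlapped CRY2 at the PIF5 end and 28.0% at the PIF4 end, and 50 and 24 of them lay inside genes.

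**Figure D3:**
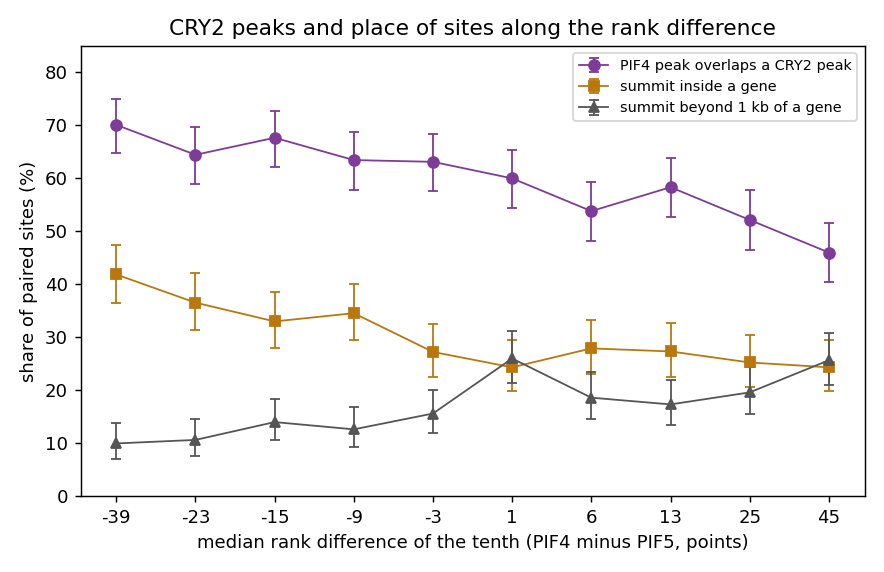
Share of sites in percent (y axis) that overlap a CRY2 peak (purple circles), lie inside a gene (orange squares) or lie beyond 1 kb of a gene (grey triangles), in 10 equal groups of the 3006 sites by rank difference (x axis, median in points, PIF5 end on the left), with Wilson 95% intervals. The CRY2 share is 70.1% on the left and 46.0% on the right, and the share beyond 1 kb 9.97% and 25.7%. The share inside genes falls from 41.9% on the left to 24.3% in the sixth group and is 24.3% on the right.

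Place and CRY2 overlap were then crossed. Inside genes and under a CRY2 peak, 19.1% of 581 sites were PIF5-higher and 8.43% PIF4-higher. Inside genes without CRY2, 13.4% of 328 sites were PIF5-higher and 16.8% PIF4-higher. In the flanks within 1 kb, the PIF5-higher and PIF4-higher shares were 13.2% and 11.8% of 972 sites with CRY2, and 11.7% and 19.4% of 614 sites without. Beyond 1 kb they were 10.1% and 17.7% of 248 sites with CRY2, and 7.98% and 22.8% of 263 sites without. In each place the PIF5-higher share was larger and the PIF4-higher share smaller with a CRY2 peak than without one, although the intervals of some of these pairs of shares overlap.

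**Figure D4:**
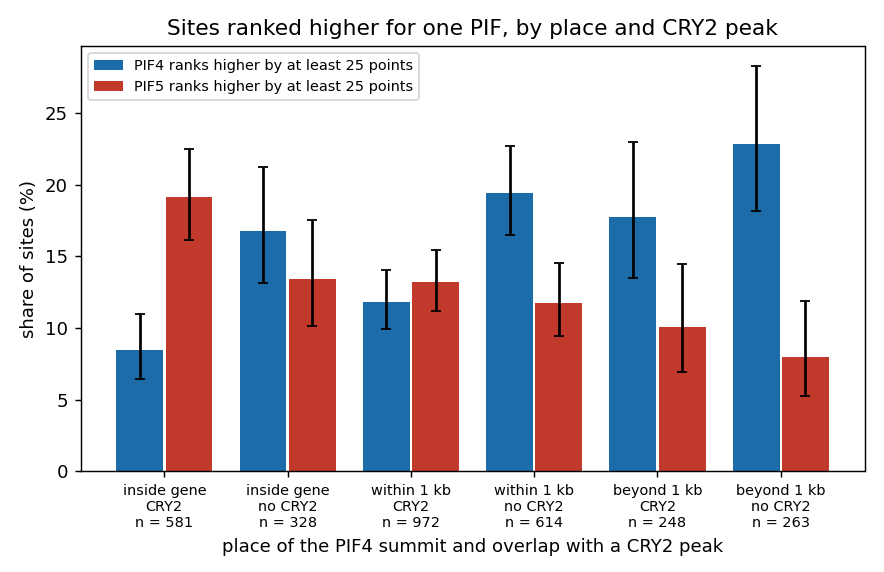
Share of sites in percent (y axis) that are PIF4-higher (blue bars) or PIF5-higher (red bars) by place of the PIF4 summit and overlap with a CRY2 peak (x axis, with the number of sites), error bars Wilson 95% intervals. Red exceeds blue inside genes with CRY2 (19.1% and 8.43%), and blue exceeds red most beyond 1 kb without CRY2 (22.8% and 7.98%).

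The strength of the CRY2 peak tracked the PIF ranks weakly. Over the 1801 sites with a CRY2 peak, rho of CRY2 fold enrichment was 0.0834 with PIF4, 0.183 with PIF5 and −0.0940 with the rank difference. These values are small and describe sites of the same lists, with no test. In the weakest and strongest of 5 groups by CRY2 strength, the median PIF5 rank among the sites was 45.7 and 71.0. The median PIF4 rank was 46.1 and 60.3. Among the 360 sites with the strongest CRY2 peaks, from 2.81 to 7.01-fold, 18.3% were PIF5-higher and 6.39% PIF4-higher. In the other 4 of 5 groups by CRY2 strength, from weakest up, the PIF5-higher and PIF4-higher shares were 13.6% and 12.2%, 12.2% and 16.1%, 15.0% and 13.3%, and 14.2% and 9.72%, with no even order. Among the 1205 sites without a CRY2 peak, 11.4% were PIF5-higher and 19.4% PIF4-higher.

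Peak width went with class as well. At PIF4-higher sites the median widths were 1065 bp for PIF4 and 645 bp for PIF5, with a median ratio of 1.56. At PIF5-higher sites they were 1050 and 841 bp, with a ratio of 1.17. Width comes from the same lists as fold enrichment and is not independent of it. To give the place and CRY2 shares at weak and strong sites apart, the sites were split into 3 equal groups by the mean of both ranks. This split was chosen after seeing the data. From the lower group up there were 140, 220 and 82 PIF4-higher sites, and 125, 228 and 48 PIF5-higher sites. Inside genes lay 35 of 140 PIF4-higher sites and 36.0% of PIF5-higher sites in the lower group, 26.4% and 41.7% in the middle group and 13.4% and 31.2% in the upper. CRY2 peaks overlapped 53.6% and 59.2%, 43.2% and 69.3%, and 46.3% and 66.7% in the same order. The direction was the same in every group, and the CRY2 difference was smallest among weak sites.

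Genes known from PIF biology were described through 15 lists with 196 genes in all. Of these, 87 genes were nearest to a shared site, at 102 sites. Of the 102 sites 12 were PIF4-higher and 12 PIF5-higher (11.8% each, beside 14.7% and 13.3% of all sites), and 49 were alike (48.0% beside 37.8%). Their median rank difference was −0.72 points. The shares are a description with no test.

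Auxin genes, which drive PIF-dependent elongation, divided by family. Of 10 synthesis and transport genes, 4 had a site, 3 alike and 1 between. YUC8 and YUC9, flavin monooxygenases of auxin synthesis, had 5.32 for PIF4 and 4.49 for PIF5, and 4.53 and 3.85. PIN3 and PIN4, auxin efflux carriers, had 4.03 and 3.19, and 3.80 and 2.52. Of 23 auxin response genes, 14 had 19 sites, of which 10 were alike, 4 PIF4-higher, 1 PIF5-higher and 4 between.

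The Aux/IAA repressors, which block auxin response until they are degraded, were mostly alike. IAA2 had 4.72 and 6.06, IAA7 had 4.17 and 3.70, IAA16 had 4.29 and 3.91, IAA19 had 4.35 and 3.85, and the stronger of 2 sites of IAA3, named SHY2 in the table, had 4.71 and 3.57. IAA14 just passed the limit towards PIF4, with 4.34 and 2.68 and a difference of 25.4 points. As farther neighbours, IAA19 had a PIF4-higher site at 28.1 points and IAA29 a site between, at 12.5 points. All 3 sites of the listed SAUR genes, whose products promote cell expansion, were PIF4-higher. SAUR19 had 3.74 and 2.02, SAUR22 had 4.49 and 2.36, and SAUR24 had 4.15 and 2.54, with differences of 68.5, 51.1 and 29.8 points. The SAUR19 and SAUR22 sites have SAUR20 and SAUR23 on their other side, so a site cannot be given to 1 gene of this cluster. None of the 3 sites overlapped a CRY2 peak. The listed GH3 enzymes, which conjugate auxin to amino acids, had 1 PIF5-higher site, at GH3.5 with 2.53 and 2.38 (own-list percentiles 54.1 and 47.9). Of their 7 sites 4 were alike. GH3.17, which was not in the list, had a PIF5-higher site at −49.9 points and another between, at −17.7 points.

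The bHLH genes of shade feedback and growth held 6 sites at 5 of 12 genes, with 3 alike, 2 PIF4-higher and 1 between. PAR1, a growth inhibitor induced by shade, had 4.10 and 3.58. PRE1, a growth-promoting helix-loop-helix protein without a basic region, had 4.14 and 2.18 and was PIF4-higher by 61.6 points. IBL1, a relative of IBH1, had an alike site at 4.56 and 4.98 and a PIF4-higher one at 3.99 and 2.41. PIF6 was the 1 gene of 7 PIF genes nearest to a site. PIF3, PIF4 and PIF8 were the farther neighbour, within 3 kb, of sites nearest to other genes, with differences of −8.49, 0.73 and 8.22 points.

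HD-ZIP class II genes, early targets of the shade response, had 6 sites at 4 of 5 genes, none in the PIF4-higher or PIF5-higher class. HAT1 was strong for both, with 5.13 and 4.88, and HAT2 had 3.91 and 2.90. HAT3 had 3.09 and 2.60. ATHB2, named HB-2 in the table, had 3 sites with differences of 19.5, −23.0 and 16.6 points, so its sites differed in direction within 1 gene. Of 9 photoreceptor genes, 4 had a site. PHYB, the main red-light receptor of seedlings, had 4.55 and 6.08, PHYD had 3.67 and 2.66 and PHOT1, a blue-light receptor of phototropism, had 5.14 and 3.71, all alike. PHYA had 3.79 and 3.36 and lay between, at −13.0 points.

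The 9 sites of light signalling genes, at 7 of 19 genes, all had a rank difference on the PIF5 side of 0, from −31.3 to −0.03 points. Of these sites 5 were alike and 2 PIF5-higher. Ranked by −log10 p, the same sites ran from −29.9 to 3.11 points with 1 PIF5-higher, so the common side depends on the measure. Both sites of COP1, the ubiquitin ligase that removes light-promoting factors in darkness, were PIF5-higher, with 2.77 and 2.53, and 3.25 and 3.01. That class holds among the shared sites only. In their own lists these COP1 peaks stood at percentiles 65.7 for PIF4 and 59.6 for PIF5, and 81.7 and 81.0. SPA1, its partner, had 3.62 and 2.95. FHL, which carries phytochrome A into the nucleus, had 4.64 and 5.38. BBX28 had 4.24 and 6.34, a difference of −10.9 points. HY5, the bZIP factor that opposes PIFs at many promoters, had no nearest site, but lay on the other side of the site nearest to OCP3, which was PIF5-higher with 2.64 and 3.04 and carried a CRY2 peak of 2.59. BBX25 likewise had no nearest site but lay on the other side of a PIF4-higher site, at AT2G31390, with 3.39 and 2.00 and a difference of 54.6 points. As farther neighbours, BBX28 and SPA1 had further sites at 1.98 and −3.14 points. Of the 9 nearest sites 7 overlapped a CRY2 peak.

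Clock and photoperiod genes had 13 sites at 13 of 22 genes, with 5 alike, 2 in each of the higher classes and 4 between. CCA1 and LHY, closely related morning factors, went in different directions. CCA1 was PIF5-higher with 2.98 and 2.87, a difference of −39.4 points, while LHY had 3.99 and 2.65 and 17.5 points. PRR9, PRR7 and PRR5, repressors that act in turn through the day, had 4.33 and 3.66, 2.97 and 2.46, and 3.63 and 2.40, at −0.75, −16.6 and 21.2 points. GI had 4.59 and 4.43 and CDF5 4.92 and 5.13, both alike. LUX, of the evening complex that represses PIF4, was PIF5-higher with 3.33 and 3.39. CDF1, a DOF repressor of flowering, was PIF4-higher with 3.51 and 1.98, a difference of 61.5 points, and RVE2 was PIF4-higher with 3.41 and 2.25.

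Brassinosteroid genes had sites at 10 of 13 members, 12 in all, with 4 alike, 6 between and 1 in each higher class. BRI1, the receptor, had 3.81 and 3.59, and BIN2, the kinase that restrains the pathway, had 3.86 and 4.54. BZR1, its transcription factor, had 2.39 and 2.21. DWF4 and CPD, hormone synthesis enzymes, had 4.39 and 4.67, and 3.27 and 2.44. The BEE genes, closely related bHLH growth promoters, divided: the flank of BEE1 held a PIF4-higher site with 3.85 and 2.26, BEE2 had 3.87 and 2.59 and lay between, and BEE3 was PIF5-higher with 3.15 and 3.42, a difference of −43.5 points. EXO had 1 site with 4.98 and 4.88 and another with 4.09 and 2.65.

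Gibberellin genes had nearest sites at 5 of 14 members, none of them in a higher class. The site nearest to AT3G03460, with RGL2 as its farther neighbour, was PIF4-higher with 3.45 and 2.06, at 51.8 points. RGA, the DELLA repressor that sequesters PIFs, had 5.00 and 4.60. The receptors GID1A, GID1B and GID1C had 4.50 and 3.82, 3.93 and 3.38, and 2.36 and 2.16. GA2OX6, which inactivates gibberellin, had 3.72 and 3.14. Cell wall genes had sites at 5 of 20 members. XTH19 and XTH24, enzymes that remodel xyloglucan, were PIF5-higher with 2.46 and 2.33, and 2.52 and 2.56. Their own-list percentiles were 49.9 for PIF4 and 43.2 for PIF5 at XTH19, and 53.6 and 61.7 at XTH24. EXPA8, an expansin, was PIF4-higher with 4.47 and 2.52, XTH15 was alike with 4.30 and 3.10, and XTH18 lay between with 3.05 and 2.64. As farther neighbours, EXPA1 had a PIF4-higher site at 61.4 points, and EXPB1 and EXPB3 had alike sites at 8.69 and 2.43 points.

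Ethylene genes had 7 sites at 6 of 12 members, 4 of them alike, with opposite classes for a factor and its ligase subunit. EIN3, the central transcription factor of the pathway, was PIF4-higher with 3.81 and 2.14, a difference of 56.0 points. EBF1, the F-box protein that removes EIN3, was PIF5-higher at both sites nearest to it, with 3.14 and 3.05, and 2.65 and 2.74. A further site, nearest to AT2G25500 with EBF1 as its farther neighbour, had 2.67 and 1.99 and lay between, at 18.1 points. EBF2 was alike, with 3.36 and 2.57. The EIN3 site had no CRY2 peak, and both PIF5-higher EBF1 sites had CRY2 peaks, of 2.84 and 3.22. The site nearest to ACS2 was weak for both proteins, 1.82 and 2.07. As a farther neighbour ACS2 had a strong alike site, nearest to LEA14, with 4.25 and 4.04.

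Clade A PP2C phosphatases, which hold back abscisic acid signalling, had 5 nearest sites at 3 of 9 genes, 2 alike and 3 between. ABI1, of the same list, was the farther neighbour of a PIF5-higher site with 3.06 and 2.71, at −27.5 points. Its own-list percentiles were 76.2 and 70.3. Of 11 greening genes 1 was nearest to a site, PSY, the first enzyme of carotenoid synthesis, which was PIF4-higher with 3.69 and 2.15. GLK1 was the farther neighbour of a PIF4-higher site with 4.04 and 2.56, at 25.3 points. Of 10 housekeeping genes 5 had a site, 3 alike and 2 PIF5-higher. ACT7, an actin, had 2.65 and 2.57, a difference of −40.1 points. UBQ10, a ubiquitin gene, had 2.14 and 2.86, a difference of −70.9 points, with a CRY2 peak of 2.84. All 5 housekeeping sites overlapped a CRY2 peak. Since UBQ10 supplies the promoter of the CRY2 transgene, its CRY2 value may include reads from the transgene, which was not tested.

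**Figure D5:**
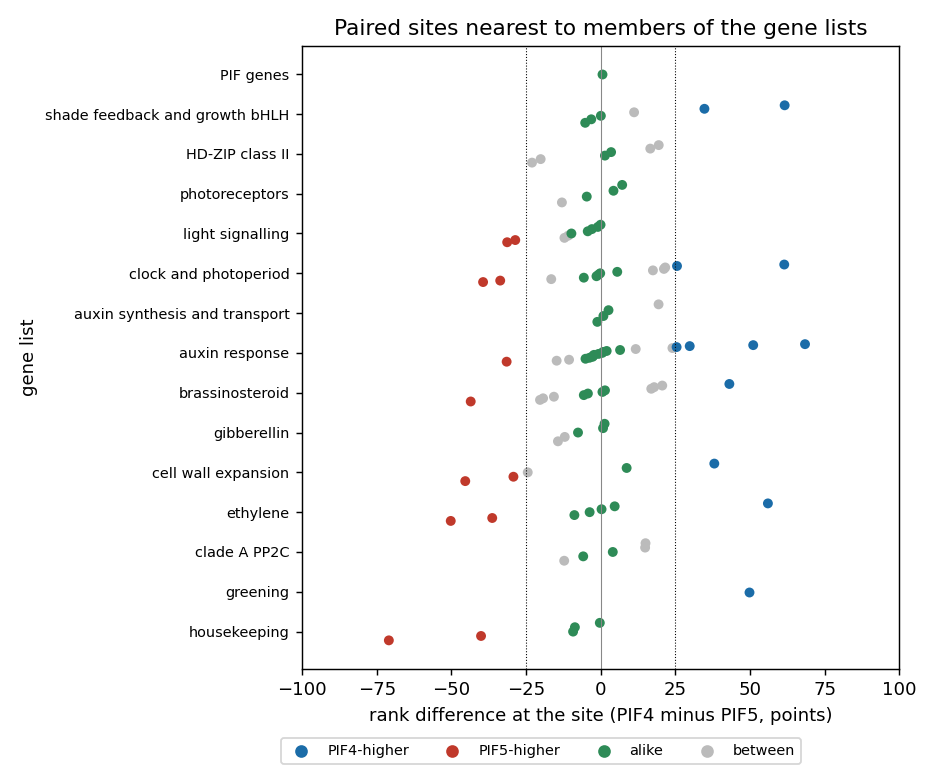
Rank difference in points (x axis, PIF4 minus PIF5, dotted lines at −25 and 25) of the 102 shared sites nearest to members of the 15 gene lists (y axis), 1 point per site, coloured by class. The points of most lists gather near 0, 3 of the 4 PIF4-higher auxin response points are SAUR sites, and all 9 light signalling points lie at or left of 0. Ranked by −log10 p, the light signalling points reach 3.11.

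The loci of the transgenes themselves gave no shared site at PIF4, PIF5 or CRY2. The PIF4 list had a peak inside PIF4 at its minimum of 1.65-fold (chr2:17887172-17887811), with no PIF5 peak there. The PIF5 list had a peak of 2.44-fold inside PIF5 (chr3:21828978-21829785), while PIF4 peaks at that locus had their summits elsewhere, at 2.94 and 2.24-fold. Peaks inside a transgene's own coding region can hold reads from the inserted copy, and these were not separated here.

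Several sites at 1 gene did not share a rank. There were 183 genes nearest to more than 1 site, with 380 sites in all and at most 3 at a gene. Within a gene the rank difference spread over a median of 21.3 points. At 49 of these genes every site fell in the same class, and at 24 of them every site was alike. Opposite classes occurred at 4 genes. AUF1, an F-box gene responsive to auxin, had a site at 3.13 and 2.08 beyond 1 kb and a second at 2.30 and 2.44 within 1 kb, with differences of 33.2 and −43.8 points. HAM3, a GRAS factor of shoot meristems, had 4.24 and 2.57 in its flank and 2.51 and 2.40 inside the gene. LECRKA4.3, a lectin receptor kinase, had 3.19 and 2.09 in its flank and 2.83 and 2.58 inside, and AT5G49100 had 3.91 and 2.07 in its flank and 2.95 and 2.78 inside. At HAM3, LECRKA4.3 and AT5G49100 the PIF4-higher site lay outside the gene and the PIF5-higher site inside. Both AUF1 sites lay outside the gene, the PIF4-higher one at 2429 bp and the PIF5-higher one at 51 bp. In their own lists the PIF5-higher sites of HAM3 and LECRKA4.3 stood at percentiles 53.0 and 68.0 for PIF4, and at 49.7 and 63.2 for PIF5.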

How the data were processed

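Chromatin from 13 libraries of tagged seedlings was sequenced by the authors. Tools listed by the submitters' processing notes are MACS2 2.0.10, Bowtie2 2.1.0 and CASAVA 1.8.2, with TAIR10 as the build and no order stated. The deposited files used here were 3 peak lists, 1 per protein, with replicates pooled by the authors. Each deposited peak has a fold enrichment (a ratio over control), a −log10 p-value, a score that in 100% of lines is 10 times this −log10 value cut to its whole part, and a summit. The q column holds 1 fixed value and was left out. Which control libraries the authors used for each list was not given in the sources used here, nor was read depth. No per-sample column was left unused (0).

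Peaks on the 5 nuclear chromosomes were paired, ranked (ties averaged) and classed with Python 3.11.15, numpy 2.4.6, scipy 1.17.1, pandas 2.3.3 and matplotlib 3.10.9, and the pairing was tested on simulated data. A site was given to the nearest of 27432 nuclear protein-coding genes of the RefSeq table (assembly TAIR10.1) within 3 kb of the PIF4 summit. 2936 sites had one, in 2739 genes, and 70 had none. Shifting the gene table by 2000 bp lowered the share of summits in flanks within 1 kb from 52.8% to 19.9%. The table has no strand and no genome sequence was at hand, so the planned search for G-box and PBE-box motifs was not run and no transcription start is named.

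Named were the 10 genes furthest towards each PIF, the 10 strongest and 3 weakest alike, and up to 6 members per gene list in listed order. Further list members in the PIF4-higher or PIF5-higher class, neighbours on the other side of a summit and genes with opposite sites were chosen after their values were seen. All 200 list memberships matched the table by locus. The sites and lists were chosen with earlier results of these data known. Intervals are Wilson 95% intervals of a share, and Newcombe intervals of a difference.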

Additional observations from a re-analysis of the deposited data

How the results depend on the processing

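No paired analysis was possible because each list pools its replicates, and for the same reason no replicate could be left out. Of the alternatives to the main counts and shares, 54 were labelled as the same, 14 as moved and none (0) as reversed. The first label allowed sizeable changes in counts. PIF5-higher sites, 401 in the main setting, numbered 295 with summits within 50 bp and 561 with a limit of 20 points. PIF4-higher sites, 442 in the main setting, numbered 338 and 558 under these settings, all labelled as the same. Among the upper 50% of each list there were 1570 paired sites and the Spearman correlation of fold enrichment was 0.588. This correlation was 0.608 for peaks with at least 50% overlap of both and 0.702 for −log10 p. With percentiles of each whole list in place of ranks among the sites, 1315 sites were PIF4-higher and 40 PIF5-higher, so the balance of the classes rests on ranking both proteins over the same sites. With a limit of 33 points the counts were 285 and 222. With CRY2 summits required within 100 bp, the CRY2 share was 24.2% at PIF4-higher and 42.4% at PIF5-higher sites. Split into 3 equal groups by mean rank, chosen after seeing the data, these shares were 53.6% and 59.2% in the lower group, and in the upper group the shares inside genes were 13.4% and 31.2%. Ranked by −log10 p, 338 of 442 PIF4-higher, 303 of 401 PIF5-higher and 1017 of 1136 alike sites kept their class. Of the alternatives at named sites 180 left the class as it was and 3 moved it, those of the 3 weakest alike sites under whole-list percentiles. Only sites still paired under a setting were counted. With the PIF4 list cut to the length of the PIF5 list, no site furthest towards PIF5 remained. Among the upper 50% of each list, 3 of these 10 did. Of the 10 furthest towards PIF4, 5 remained under the 50% overlap rule and none among the upper 50%. How depth limits these values could not be judged, as the lists give none.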

Other observations

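Gene families were grouped by the letters that open their symbols, a rule set after values were seen, and those with at least 8 shared sites are given here without a test. Of all 3006 sites, 14.7% were PIF4-higher, 13.3% PIF5-higher and 37.8% alike, and 30.2% lay inside genes. The counts per family are small beside these shares. The UDP-glycosyltransferases (UGT), which attach sugars to hormones and secondary metabolites, had the lowest median rank difference, −8.73 points over 12 sites, 10 of them inside genes. UGT89B1 had 2.89-fold for PIF4 and 3.06-fold for PIF5 and was PIF5-higher, while a site beyond 1 kb of UGT72E2 had 3.45 and 2.09 and was PIF4-higher. The cytochrome P450 genes (CYP) had −8.02 points over 23 sites, with 4 PIF5-higher and 1 PIF4-higher. All 3 sites of CYP86A genes, fatty acid hydroxylases of cutin and suberin synthesis, lay inside the gene and were PIF5-higher: CYP86A4 had 2.13 and 2.76, CYP86A8 had 2.63 and 2.75, and CYP86A2 had 2.62 and 2.64. WRKY genes, many of which act in defence, had −6.31 points over 25 sites, and NAC genes had −5.81 over 15. The prefixes ABCG, CIPK and IAA had −4.02, −3.99 and −2.36 points over 8 sites each.

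At the other end, LBD genes, of a plant-specific family of organ boundary and root factors, had a median of 8.44 points over 9 sites, with 2 PIF4-higher, 6 alike and none (0) PIF5-higher or inside a gene. LBD31 had 3.64 and 2.11, and LBD38, which represses nitrate-responsive genes, had an alike site at 4.78 and 3.48 and a PIF4-higher one at 3.52 and 2.16. MYB genes had 1.48 points over 21 sites, with 11 alike, 4 PIF4-higher and 1 PIF5-higher. Homeobox genes with the prefix HB had −1.25 over 14 sites, with 2 PIF4-higher and 0 PIF5-higher, HB21 and HB53 being the former. Rank differences varied far more within a family than the medians did between families. They ran from −49.8 to 48.2 points for UGT and from −67.0 to 41.0 for CYP. For LBD, MYB and HB they ran from −5.59 to 53.4, −43.2 to 53.7 and −23.0 to 79.0.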
